A study of Mus musculus with 9 samples.

Results

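The Nanog locus was taken as the interval chr6:122550000-122860000 of the mouse genome build mm10, which holds the start sites of Nanog, Dppa3, Gdf3 and Slc2a3. Its members were the called chromatin interactions, here called pairs, with at least 1 of their 2 bins in that interval. They numbered 241 of 36274 pairs for H3K27ac in untreated cells, 224 of 28210 for H3K27ac after IAA, 51 of 49630 for CTCF and 34 of 23630 for RAD21. The interval, its 4 genes and 1 bin in Gdf3 were chosen on H3K27ac contact counts with and without IAA, so every value of that contrast is given below as a description, with no test.

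The data are MNase HiChIP from E14 mouse embryonic stem cells of the genotype CTCF AID, in which CTCF carries an auxin-inducible degron, so that the auxin IAA can trigger its breakdown. HiChIP joins DNA ends that lie near each other in crosslinked nuclei and then enriches them with an antibody, and micrococcal nuclease cut the chromatin here. The groups were H3K27ac without IAA (2 libraries), H3K27ac after 12 h of IAA (2 libraries), CTCF without IAA (2 libraries) and RAD21 without IAA (3 libraries), all grown without serum, with leukemia inhibitory factor and the inhibitors PD0325901 and CHIR99021. Each group has 1 list pooled over its libraries, so no value here has a replicate error, and a difference between 2 lists compares those lists and not the conditions.

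Both H3K27ac groups carry the same CTCF AID alleles, and whether the line is 1 clone is not given in the sources used here. CTCF protein levels were not analysed here, and CTCF and RAD21 pairs after IAA were not used here. The authors' models rested on 12551236 contacts for untreated H3K27ac, 14629323 after IAA, 2839756 for CTCF and 1517698 for RAD21. A start-site bin was listed as an H3K27ac peak for 6 of 6 pluripotency genes, Nanog among them, and for 0 of 6 genes of later lineages. Contacts are averages over all cells, so fewer cells with a contact and a rarer contact in every cell cannot be told apart.

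Nanog is a homeodomain transcription factor of the naive pluripotent state. Dppa3 (Stella) shields DNA methylation in the early embryo, Gdf3 is a ligand of the TGF-beta family, and Slc2a3 is a glucose transporter. In mouse embryonic stem cells the enhancers around Nanog are named by their distance from its start, as the -45, -5 and +60 kb regions. H3K27ac marks active promoters and enhancers. Cohesin, of which RAD21 is a subunit, extrudes DNA loops until CTCF, bound in 1 orientation, stops it, which is why strong loops tend to join CTCF sites that point at each other.

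The genes lie on chromosome 6 as follows, on mm10 with the GENCODE M21 basic annotation, and distances below are signed from the Nanog start with minus for the lower coordinates. Nanog (ENSMUSG00000012396.12) spans 122707489 to 122714633 on the forward strand. Dppa3 (ENSMUSG00000046323.8) spans 122626410 to 122630272 on the forward strand. Gdf3 (ENSMUSG00000030117.5) spans 122605403 to 122610087 on the reverse strand. Slc2a3 (ENSMUSG00000003153.10) spans 122727809 to 122801640 on the reverse strand and has several annotated starts. The main Slc2a3 start here is that of its transcript in the basic annotation, at 122742745 (+35.5 kb, bin 122742001 to 122744000). In the whole annotation a longer transcript begins at 122801640, at the far end of the gene, and that far start lies in the bin 122800001 to 122802000 (+93.5 kb). No Slc2a3 exon of the whole annotation overlaps the +60 kb bin or its flanks, which lie within that longer transcript. The interval spans 310 kb and also holds the starts of Apobec1, which edits the messenger RNA of apolipoprotein B, of Foxj2, a forkhead factor, and of C3ar1, a complement receptor.

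Sequences are shown for the Nanog promoter, because it has CTCF and RAD21 pairs and an H3K27ac peak and is in the promoter table, and for the CTCF anchors that carry the most contacts. The 250 bases before the Nanog start, chr6:122707239-122707488 on the forward strand, are from RefSeq on GRCm38.p6, with an octamer core TTTGCAT and a Sox core ACAATG in capitals. They were the only matches of these letters on either strand of the 300-base window from 250 bases before to 50 from the start.
Nanog promoter: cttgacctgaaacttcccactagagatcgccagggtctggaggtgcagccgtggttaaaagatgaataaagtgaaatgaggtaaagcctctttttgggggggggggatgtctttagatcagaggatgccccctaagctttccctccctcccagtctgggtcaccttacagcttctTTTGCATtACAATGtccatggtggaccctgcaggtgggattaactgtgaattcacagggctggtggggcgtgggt
The octamer core begins 75 bases before the start, with 1 base between it and the Sox core. Of 32851 RefSeq windows of the same length, 4.63% held the octamer core, 12.6% the Sox core and 0.813% both. Read on the reverse strand, the same bases match the composite Sox-Oct motif (CATTGT, any base, ATGCAAA) with 0 mismatches at 122707414 to 122707427. With up to 2 mismatches, 1 of the 50 untreated H3K27ac peak bins of the interval held that composite (the Nanog start bin), against 6.76% of 23194 such bins genome-wide. Dppa3, Gdf3 and Slc2a3 had no entry in the promoter table.

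The CTCF anchors below are 1 kb bins of the CTCF list, each named by the distance of its centre from the Nanog start. Each line gives 20 bases of GRCm38 with the fixed letters of a CTCF core (CC, 3 bases of any kind, AG, 2 bases of any kind, GGC) in capitals, read on the strand of the match.
Anchor at -47.0 kb, forward strand, 122660669 to 122660680: tagtCCagcAGgtGGCagga
Anchor at -38.0 kb, forward strand, 122669544 to 122669555: tccaCCaacAGggGGCgtta
Anchor at +13.0 kb, reverse strand, 122720663 to 122720674: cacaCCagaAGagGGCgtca
Anchor at +33.0 kb, forward strand, 122740136 to 122740147: acgtCCagtAGgtGGCagca
Of the anchors printed, both to the left of Nanog thus carry the core on the forward strand and that at +13.0 kb carries it on the reverse strand. Other CTCF anchors left of Nanog carry it on either strand. Among them are -46.0 kb (1 CTCF pair), on the reverse strand, and -8.0 kb (2 CTCF pairs), on the forward strand. The anchor at +78.0 kb had no match to these letters. The core was found on either strand in 12 of the 29 CTCF anchor bins of the interval (41.4%), in 49.7% of the 34038 anchor bins genome-wide, and in 18.0% of the same bins moved by 10 kb.

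CTCF and RAD21 pairs in untreated cells divided the interval into separate webs. The CTCF pair with most contacts joined -38.0 kb to +13.0 kb, around Nanog, with 142 CTCF contacts where the authors' model predicted 10.2. The same pair led the RAD21 list with 79 contacts against 5.00 predicted. The pair of +33.0 kb and +78.0 kb, which spans the main Slc2a3 start and the +60 kb region, was next with 72 CTCF and 40 RAD21 contacts. The pair of -47.0 kb and +13.0 kb held 65 and 29 contacts, and that of -47.0 kb and -38.0 kb held 62 and 29. The pair of -38.0 kb and +78.0 kb, which takes in Nanog, the main Slc2a3 start and the -5 and +60 kb enhancer regions, held 41 CTCF and 23 RAD21 contacts. The strongest pairs of both antibodies thus shared their anchors.

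The -38.0 kb anchor had 14 CTCF pairs and the -47.0 kb anchor 10, and apart from the pair that joins them, each of these ran to the right. In the RAD21 list the 2 anchors had 10 and 5 pairs with the same direction. The +78.0 kb anchor had 8 CTCF and 9 RAD21 pairs, each to the left. Of the 51 CTCF and 34 RAD21 pairs, 0 joined a bin left of -47.5 kb to a bin right of it. On the left side, the CTCF list held 4 pairs around Gdf3 and Dppa3. Their contacts were 20 for -102.0 kb (an exon of Gdf3) with -74.0 kb, 19 for -93.0 kb with -74.0 kb, 16 for -112.0 kb with -93.0 kb and 14 for -112.0 kb with -74.0 kb. The RAD21 list held none of these 4.

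Of the 4 genes, Nanog and Slc2a3 had pairs at the 1 kb bin of their start. The Nanog start bin was paired with -38.0 kb by 38 CTCF and 16 RAD21 contacts. It was also paired with +13.0 kb (20 CTCF contacts), with -47.0 kb (16 CTCF contacts) and, in RAD21 only, with the -5 kb enhancer bin at -5.0 kb (19 contacts). The bin of the main Slc2a3 start at +35.0 kb was in the RAD21 list only, with +78.0 kb (22 contacts), +54.0 kb (15 contacts) and +79.0 kb (11 contacts). The bin of the far Slc2a3 start at +94 kb was in both lists, with -38.0 kb (15 CTCF contacts), with +13.0 kb (10 CTCF contacts) and with +33.0 kb (9 RAD21 contacts). Neither the Gdf3 nor the Dppa3 start bin was in the CTCF or the RAD21 list. Of the 34 RAD21 pairs of the interval, 18 were also CTCF pairs at the same bins (52.9%, exact 95% interval 35.1 to 70.2), against 72.2% of all RAD21 pairs. Of the 51 CTCF pairs, those 18 are 35.3% (22.4 to 49.9), against 34.4% of all CTCF pairs. Intervals of shares are Clopper-Pearson and cover counting error only.

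**Figure D1:**
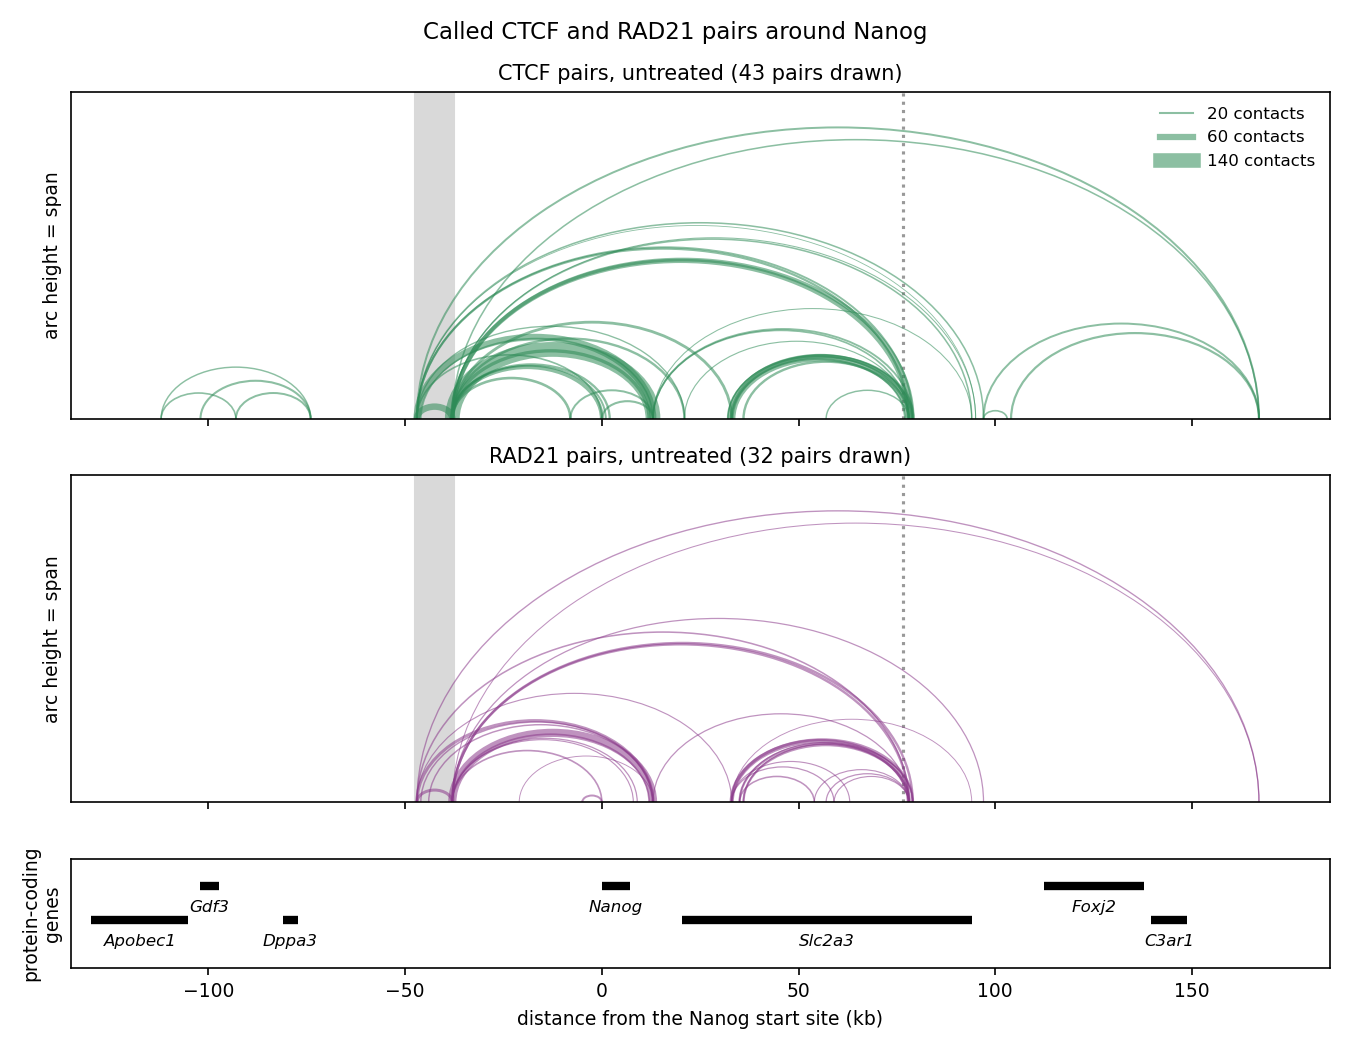
Called CTCF (43 drawn) and RAD21 (32 drawn) pairs in untreated cells, as arcs from bin to bin along the distance from the Nanog start in kb, with arc width in proportion to contacts and named protein-coding genes below. Grey marks the bins from -47.5 to -37.5 kb and the dotted line +76.5 kb; no arc of either list passes over the left edge of the grey band.

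From these pairs the interval was divided, after the values were seen, into the left side (bins before 122660001, with Gdf3 and Dppa3), the anchor band (122660001 to 122670000, which holds the anchors at -47.0 and -38.0 kb and, between them, the -45 kb enhancer bin), the Nanog to Slc2a3 domain (122670001 to 122784000) and the right side (from 122784001). Pairs to bins outside the interval were counted on the side on which those bins lie.

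The untreated H3K27ac pairs joined Gdf3, Nanog, Slc2a3 and the enhancers into a web across the anchor band. They held 8 to 114 contacts each (median 14) and spanned a median of 46 kb, against 24 kb for all untreated H3K27ac pairs. Of the 155 bins of 2 kb in the interval, 67 were in the untreated list, 60 in the IAA list and 54 in both. The median bin of either whole list had 1 partner. In the untreated list the -5 kb enhancer bin (122702001 to 122704000) had 36 partners, the Gdf3 bin (122608001 to 122610000) 35, the -45 kb enhancer bin (122662001 to 122664000) 35, the bin at +57.5 kb on the left flank of the +60 kb enhancer (122764001 to 122766000) 30, the Nanog start bin 21, the bin of the main Slc2a3 start 14 and that of its far start 4. The -5 kb bin ranked 4th of 27304 bins by partners, and it ranked 1st by summed contacts in both lists. The Dppa3 start bin (122626001 to 122628000) had 2 partners and the bin of the Gdf3 start (122610001 to 122612000) had 1.

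The Gdf3 bin overlaps a Gdf3 exon and ends 87 bp short of the start of the protein-coding transcript, which lies in the next bin. A noncoding Gdf3 transcript of the whole annotation starts within it, at 122609824. It was a peak in both lists. Its partners in untreated cells included the Nanog start bin, the Dppa3 start bin, both Slc2a3 start bins, all 3 enhancer regions and the starts of Apobec1 and of Phc1, a Polycomb subunit gene 268 kb further left.

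The 5 untreated pairs with most contacts each had a bin in an enhancer region. The pair of +57.5 kb with +63.5 kb, a bin in an Slc2a3 intron just past the +60 kb region, held 114 contacts, and 103 after IAA. The -5 kb bin held 111 contacts with +57.5 kb (43.8 times the model's prediction), 107 with the -45 kb bin and 75 with the bin at +59.5 kb. After IAA the same 3 pairs held 76, 89 and 50 contacts. The main Slc2a3 start bin held 65 contacts with +57.5 kb, and 37 after IAA. All 5 pairs, which were chosen by their untreated counts, had fewer contacts in the IAA list. No pair between the Nanog start and the Slc2a3 or Dppa3 start was in either list. The Nanog start and the -5 kb bin lie closer than the shortest span listed, which was 6 kb.

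**Figure D2:**
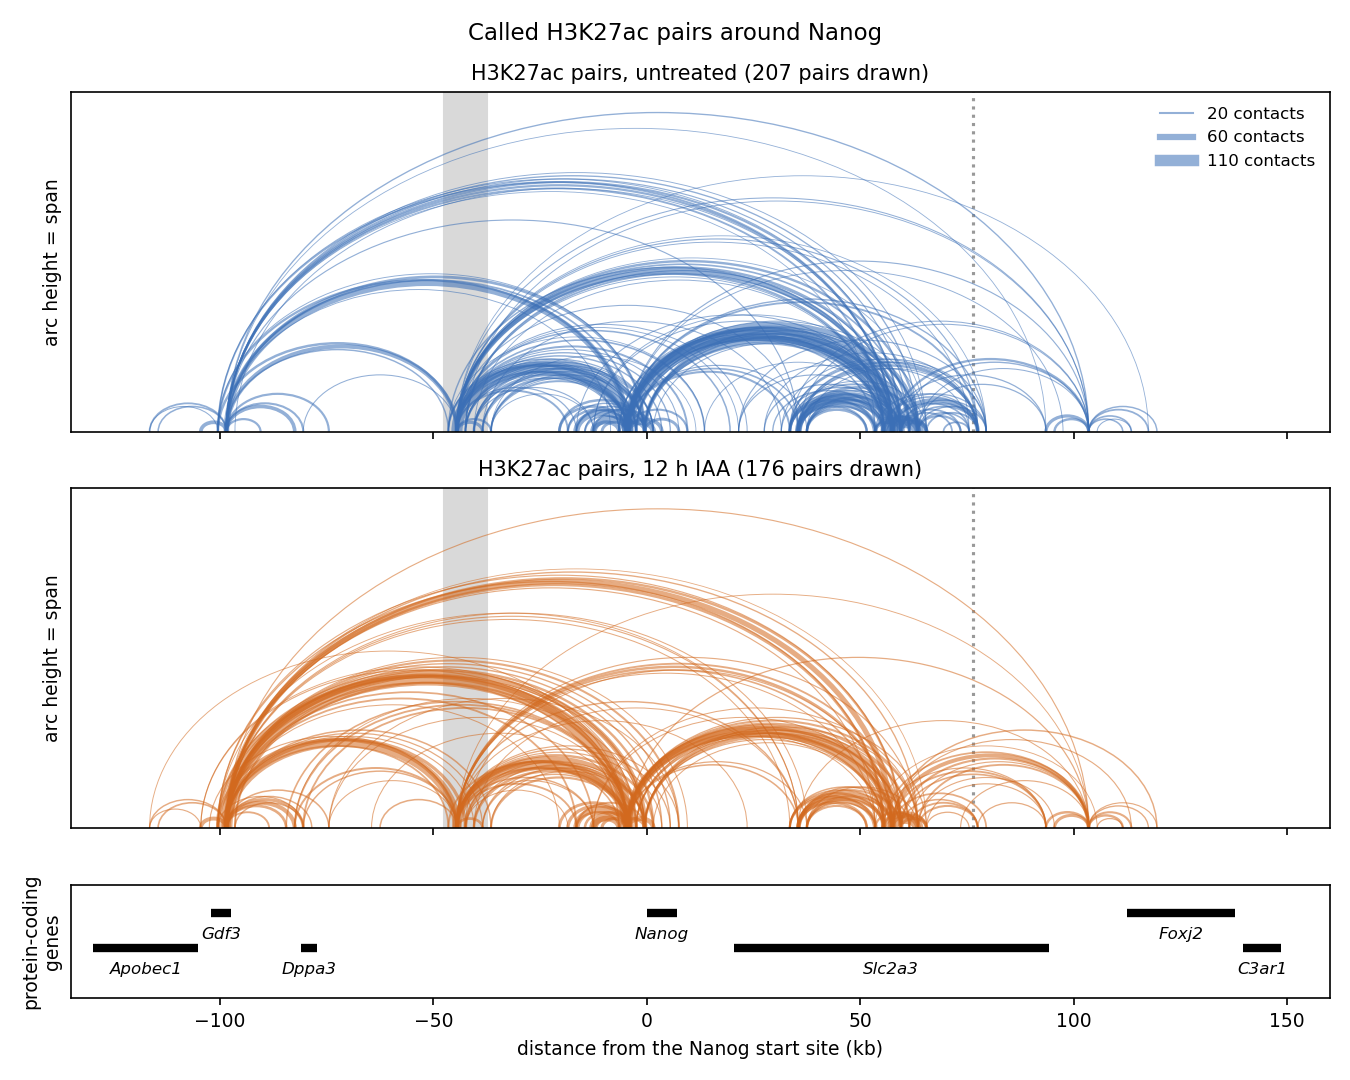
Called H3K27ac pairs with both bins in the interval, untreated (207 drawn, leaving out 1 at the left edge) and after 12 h of IAA (176 drawn), as arcs with width in proportion to contacts; the distance axis, grey band and dotted line are those of the CTCF and RAD21 plot. After IAA the arcs from the Gdf3 bin at -98.5 kb over the grey band are thicker and more numerous (54 to 116 contacts with the -5 kb bin), and those ending at the dotted line are fewer.

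Of the 241 untreated pairs, 138 were called again after IAA (57.3%, exact 95% interval 50.8 to 63.6), against 42.9% of all untreated pairs. They made up 61.6% (54.9 to 68.0) of the 224 IAA pairs, against 55.1% of all IAA pairs. Pairs called in 1 list only are not shown to be absent from the other, since no counts below the authors' q threshold are in the lists. For the pairs in both lists, the log2 ratio of contacts was taken as IAA over untreated, relative to the ratio of all contacts in pairs shared genome-wide (0.980). With the totals of the authors' models in place of the shared pairs, every log2 ratio and every bound would be 0.25 lower, so a ratio between 0 and 0.25 would change sign. The intervals show counting error alone and are not read as tests.

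Over the 138 shared pairs the median log2 ratio was 0.03, and it was 0.03 over all 15551 shared pairs. The ratio was at least 1.5-fold higher in 20 (14.5%) and at least 1.5-fold lower in 10 (7.25%), against 8.55% and 8.04% of all shared pairs. With the model totals these were 10 and 27, beside 2.94% and 19.7% of all shared pairs. Among pairs that span 40 kb or more, 16 of 83 in the interval were higher by that measure (19.3%) and 7 were lower (8.43%), beside 10.4% and 11.2% of the 4364 such pairs genome-wide. By sign, 77 were higher and 61 lower, where 53.8% of all shared pairs were higher. With the model totals 48 were higher and 90 lower, where 28.0% of all were higher. The median of the interval thus equalled that of all shared pairs, and the ratios within it are given by position next.

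The Gdf3 bin had 35 partners in the untreated list and 46 in the IAA list, where it ranked 1st of 23082 bins. Its coverage was 14297 in the untreated and 16908 in the IAA data, a log2 ratio of 0.04 relative to the median bin of both lists. Its 27 shared pairs held 549 contacts in untreated cells and 728 after IAA, a log2 ratio of 0.44 (95% counting interval 0.27 to 0.60). Of these 27 pairs, 19 were higher and 8 lower in the IAA list, where 53.8% of all shared pairs were higher. By at least 1.5-fold 6 were higher (22.2%) and 0 lower, against 8.55% and 8.04% of all. With the model totals, 11 were higher and 16 lower (28.0% of all higher), with 4 and 3 past 1.5-fold (2.94% and 19.7% of all). A further 19 pairs were in the IAA list only (41.3% of its 46, against 44.9% of all IAA pairs), with 8 to 31 contacts (median 14), and 8 were in the untreated list only (22.9% of its 35, against 57.1% of all untreated pairs), with 8 to 21. The lowest count listed for this bin at spans of 40 kb or more was 8 in both lists.

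The highest ratios of this bin were with partners in the anchor band and in the Nanog to Slc2a3 domain. The pair with the -5 kb enhancer went from 54 to 116 contacts (log2 ratio 1.13, interval 0.65 to 1.63), or from 26.1 to 54.4 times the model's prediction. That with the -45 kb enhancer went from 39 to 82 contacts (1.10, 0.53 to 1.69). That with +57.5 kb, the left flank of the +60 kb enhancer, went from 21 to 50 contacts (1.28, 0.52 to 2.09), while that with the +60 kb enhancer bin itself at +59.5 kb held 20 and 23 (0.23, -0.70 to 1.17). The pair with the Nanog start went from 27 to 50 contacts (0.92, 0.21 to 1.65). The pair with the bin at -2.5 kb held 17 and 27 contacts (0.70, -0.23 to 1.66) and that with the bin at +55.5 kb 18 and 28 (0.67, -0.24 to 1.61). The right flank of the +60 kb bin was a partner in the untreated list only, with 11 contacts. The remaining shared partners in the domain were the main Slc2a3 start and the bins at +53.5, +63.5 and +65.5 kb. In that order they held 11, 8, 13 and 9 contacts untreated and 11, 11, 13 and 8 after IAA. Among the pairs of the IAA list only, the highest counts were 31 with the right flank of the -45 kb bin, 26 at -84.5 kb, 23 at +1.5 kb in the Nanog gene and 20 at +7.5 kb at its end.

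Among the gene starts, Dppa3 had a ratio close to those of the -2.5 and +55.5 kb bins, at 20 and 29 contacts with the Gdf3 bin (log2 ratio 0.57, interval -0.31 to 1.46). The main Slc2a3 start had 11 contacts in each list, and the far one 8 in the untreated list only. The Phc1 start bin had 49 and 38 contacts (-0.34, -0.99 to 0.30), and the Apobec1 start bin 36 and 38. Summed over the 10 shared partners to the left of the Gdf3 bin, 193 contacts stood against 186 (log2 ratio -0.02, -0.32 to 0.27). Over the 3 partners between the Gdf3 bin and the anchor band the sums were 76 and 84 (0.17, -0.29 to 0.64). Over the 2 in the anchor band they were 53 and 99 (0.93, 0.44 to 1.44), and over the 10 in the Nanog to Slc2a3 domain 198 and 337 (0.80, 0.54 to 1.06). Over the 2 partners on the right side they were 29 and 22 (-0.37, -1.24 to 0.48). The sums with the anchor band and the domain had the highest ratios of these 5, and on the right side only 2 pairs with few contacts could be compared.

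**Figure D3:**
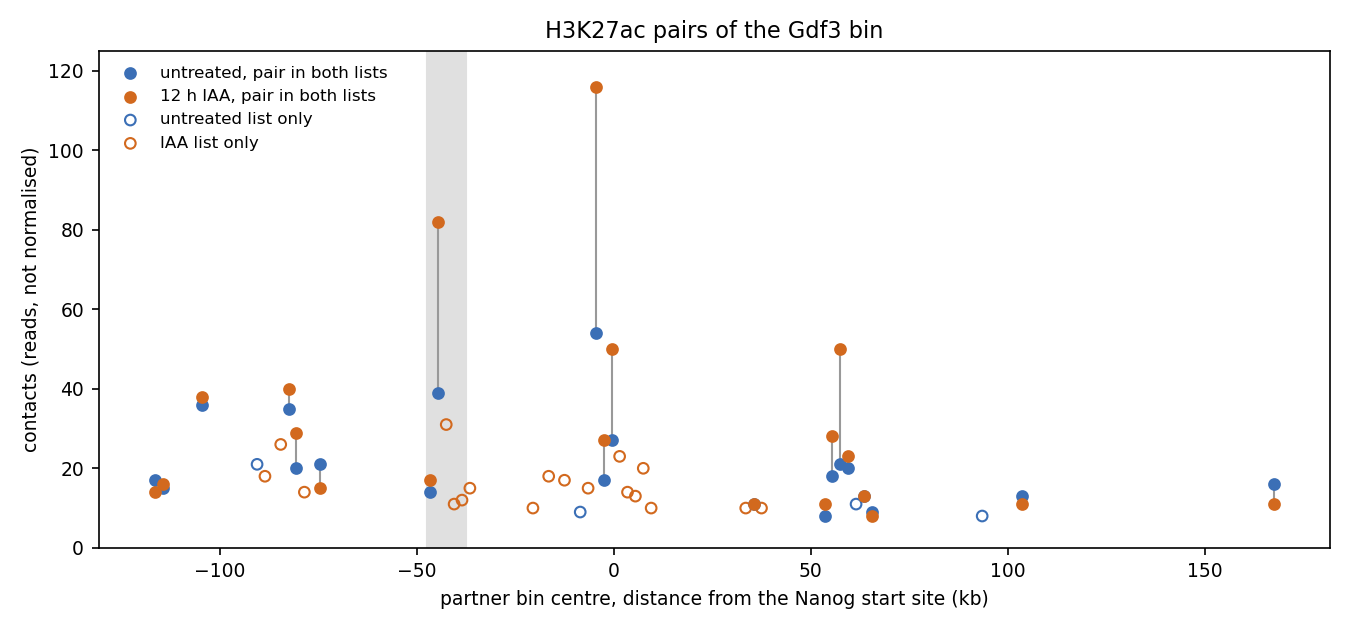
Contacts (reads, not normalised) of the Gdf3 bin with each partner bin near or in the interval (42 drawn, leaving out 12 further left), by the distance of the partner's centre from the Nanog start in kb; filled points joined by a line are pairs in both lists, open points are in 1 list only, and grey marks the anchor band. The partners at -44.5, -4.5, -0.5 and +57.5 kb hold 82, 116, 50 and 50 contacts after IAA (orange) and 39, 54, 27 and 21 untreated (blue).

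The other left-side pairs with the domain that were in both lists came from 3 bins, and most from Phc1, a gene outside the interval. The values that follow are also from the contrast that chose the locus. Leaving out the Gdf3 bin, 17 pairs joined the left side to the Nanog to Slc2a3 domain in the untreated list and 39 in the IAA list. The 13 shared ones held 183 and 258 contacts (log2 ratio 0.52, 0.25 to 0.81). Of these, 10 pairs with 143 and 198 contacts are of the Phc1 start bin and the bin next to it, and 3 pairs with 40 and 60 contacts are of the bin at -100.5 kb, in Gdf3. A further 13 left-side bins, the Dppa3 start among them, had pairs with the domain in the IAA list only (18 pairs). Without the Gdf3 bin, 66.7% of the 39 pairs after IAA were in that list only, against 44.9% of all IAA pairs. Coverage could be compared for 11 of the 13, and in 7 its relative log2 ratio, 0.345 to 0.599, was above the 95th percentile of 0.32 over all bins. These 7 bins hold 11 of the 18 pairs, and the other 4 bins were below that percentile. The part of coverage in the pairs of the IAA list only was not tested. With the Gdf3 bin the numbers were 29 and 61 pairs, and the 23 shared ones held 381 and 595 contacts (0.67, 0.48 to 0.86), 20 of them higher and 3 lower, or 16 and 7 with the model totals. Of all shared pairs 53.8% were higher, or 28.0% with the model totals. Of the 61 pairs after IAA, 62.3% were in that list only, against 44.9% of all IAA pairs. The left side to the anchor band had 6 and 12 pairs, with 97 and 175 contacts in the 5 shared ones (0.88, 0.51 to 1.25). Of those 12 pairs after IAA, 58.3% were in that list only, against the same 44.9%. Within the left side the 13 shared pairs held 269 and 270 contacts (0.03, -0.21 to 0.28).

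The Dppa3 start bin had 2 partners in the untreated list, the Gdf3 bin and the -45 kb enhancer (10 contacts, then 14), and 5 in the IAA list. Of these 5, 3 were in the IAA list only, as were 44.9% of all IAA pairs. They were the -5 kb enhancer (18 contacts), the bin of the Gdf3 start (14 contacts) and the bin at -100.5 kb in Gdf3 (12 contacts). Its coverage was 958 and 1579, a relative log2 ratio of 0.52, and the bin is one of the 7 above the 95th percentile. The bin of the Gdf3 start had 1 partner in the untreated list, +57.5 kb with 9 contacts, and 3 in the IAA list, namely the -5 kb enhancer (20 contacts), the Dppa3 start (14 contacts) and the Nanog start (9 contacts).

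The start of Phc1 lies outside the interval, on the left side. The pair of its start bin (122340001 to 122342000) with the -45 kb enhancer went from 10 to 31 contacts, a log2 ratio of 1.66 (0.60 to 2.85), rank 9 of the 14872 shared pairs genome-wide with 20 contacts or more over both lists. With the -5 kb enhancer it went from 31 to 48 contacts and with +57.5 kb from 12 to 23, while with the +60 kb bin itself it held 19 and 18. Its 9 shared pairs into the interval held 160 and 211 contacts (0.43, 0.13 to 0.73), while its pair with the Gdf3 bin, on the same side of the anchor band, is the one given above at 49 and 38.

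Within the Nanog to Slc2a3 domain the summed contacts of the shared pairs were lower in the IAA list. There were 88 pairs in the untreated list and 55 in the IAA list. The 50 shared ones held 1656 and 1443 contacts (log2 ratio -0.17, -0.27 to -0.07), with 19 higher and 31 lower, or 10 and 40 with the model totals. Of all shared pairs 46.2% were lower, or 72.0% with the model totals. By 1.5-fold, 0 were higher, against 8.55% of all shared pairs, and 5 were lower (10%, against 8.04%). With the model totals 0 were higher and 14 lower, beside 2.94% and 19.7% of all. Of the 88 untreated pairs, 56.8% were called again, against 42.9% of all, so the domain kept a larger share of its pairs than the whole list. The other 38 were in the untreated list only, and 5 of the 55 pairs after IAA were in that list only (9.09%, against 44.9% of all). Between the anchor band and the domain there were 47 and 28 pairs. The 23 shared ones were near level, at 530 and 494 contacts (log2 ratio -0.07, -0.25 to 0.11). By 1.5-fold 3 of these were higher and 4 lower (13.0% and 17.4%, against 8.55% and 8.04% of all). With the model totals 1 was higher and 6 lower, beside 2.94% and 19.7% of all. The pairs between the -5 and +60 kb regions (each region being its bin and both flanks) were all 5 lower, at 268 and 181 contacts (-0.54, -0.82 to -0.26). Those between the -45 and +60 kb regions held 84 and 53 (-0.64, -1.16 to -0.12). The pairs between the -5 and -45 kb regions held 192 and 191 (0.02, -0.28 to 0.32). The 3 lowest ratios in the interval, among pairs with 20 contacts or more, were the -5 kb bin with +63.5 kb (48 and 20 contacts, -1.23), the -45 kb bin with +63.5 kb (23 and 11, -1.04) and the Nanog start with +55.5 kb (23 and 12, -0.91).

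The shared pairs of the Nanog start bin held similar sums in both lists, with ratios of both signs, while all its listed pairs together held 397 contacts untreated and 326 after IAA. It had 21 and 18 partners, and its 15 shared pairs held 294 and 300 contacts (log2 ratio 0.06, -0.18 to 0.30). Its 3 shared pairs with the left side held 44 and 72 contacts (0.74, 0.18 to 1.31). Its 4 with the anchor band held 79 and 83 (0.10, -0.36 to 0.56), with 39 and 43 of these for the -45 kb bin alone. Its 8 within the domain held 171 and 145 (-0.21, -0.54 to 0.12), with 42 and 28 for the bin at +57.5 kb. A further 4 of its 12 untreated pairs within the domain were in that list only (33.3%, against 57.1% of all untreated pairs). All its listed pairs there held 251 and 145 contacts. Of the left-side contacts, 27 and 50 are those of the pair with the Gdf3 bin given above. Coverage of the bin was 5967 and 6290, a relative log2 ratio of -0.12.

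The -5 kb enhancer bin had 36 and 44 partners. Its 4 shared pairs with the left side held 126 and 226 contacts (log2 ratio 0.87, 0.55 to 1.20), and 13 of its 17 such pairs after IAA were in that list only (76.5%, against 44.9% of all IAA pairs), while 1 of 5 untreated was in the untreated list only (20%, against 57.1%). Its 17 shared pairs within the domain held 664 and 593 contacts (-0.13, -0.30 to 0.03). The -45 kb bin had 35 and 27 partners, with 83 and 158 contacts in its 4 shared pairs with the left side (0.96, 0.57 to 1.36) and 382 and 351 in its 15 with the domain (-0.09, -0.31 to 0.12). The bin at +57.5 kb had 30 and 24 partners, with 43 and 93 contacts in 3 shared pairs with the left side (1.14, 0.61 to 1.70) and 467 and 344 in 9 within the domain (-0.41, -0.62 to -0.21). It had 5 left-side pairs in each list, and 2 of each 5 were in that list only (40%). The untreated 2 were with -100.5 kb (17 contacts) and the Gdf3 start (9 contacts), both in Gdf3. All its listed left-side pairs held 69 and 109 contacts. The +60 kb enhancer bin next to the +57.5 kb bin, at +59.5 kb, had 21 and 18 partners, with 61 and 63 contacts in 4 pairs with the left side (0.08, -0.46 to 0.61) and 188 and 143 in 6 within the domain (-0.37, -0.69 to -0.04). Towards Gdf3 and Phc1 the sums over shared pairs of the -5 kb, -45 kb and +57.5 kb bins were thus higher in the IAA list. That of the +60 kb bin itself was nearly level.

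The bin of the main Slc2a3 start had 14 and 12 partners. Its 10 shared pairs held 277 and 230 contacts (log2 ratio -0.24, -0.50 to 0.02). Its 3 pairs with the +60 kb region held 109 and 73 (-0.55, -0.997 to -0.11). Closer in, its pair with +53.5 kb held 49 and 45 contacts and that with +51.5 kb 20 and 26. Its pairs with the anchors at the right end of the domain, 23 contacts at +77.5 kb and 12 at +79.5 kb, were in the untreated list only. Coverage of the bin was 3502 and 3462, which is a relative log2 ratio of -0.22, within the 5th to 95th percentile of -0.26 to 0.32 over all bins. The bin of the far Slc2a3 start at +93.5 kb, a peak in both lists, had 4 and 6 partners, with 31 and 24 contacts to +103.5 kb and 12 and 18 to +57.5 kb. Its pair with the +60 kb bin was in the IAA list only (16 contacts).

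**Figure D4:**
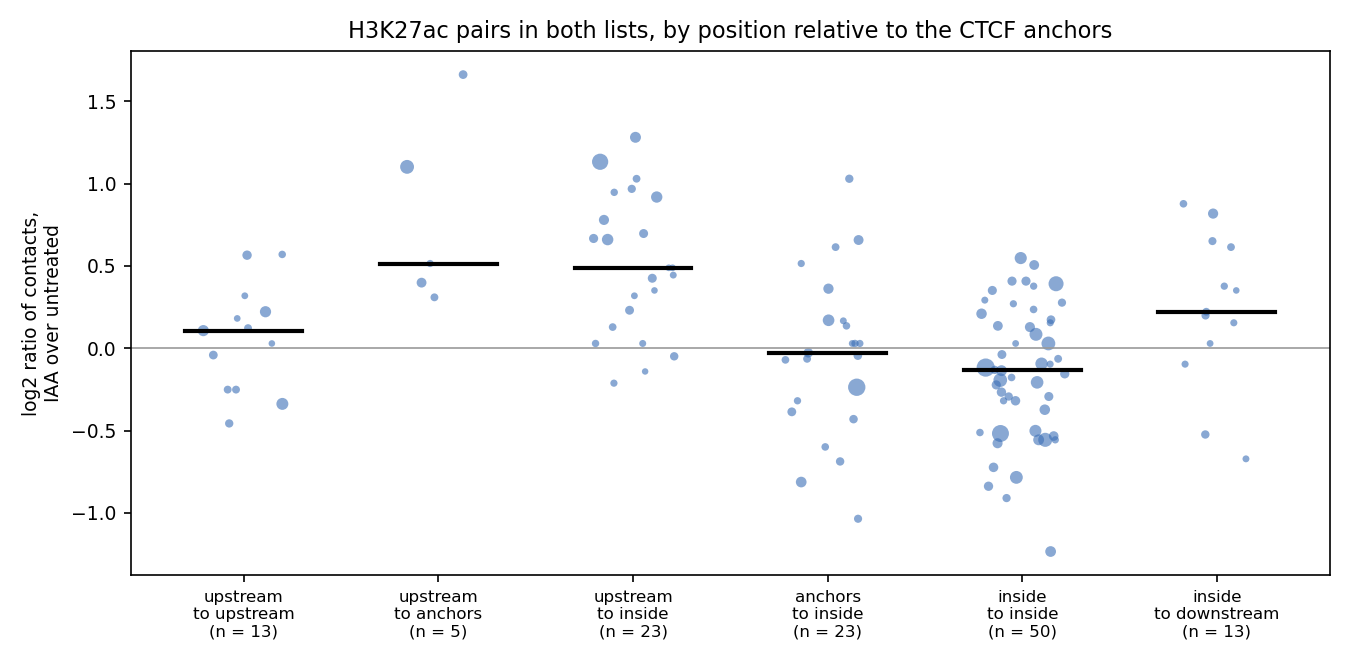
Log2 ratio of contacts, IAA over untreated, of each H3K27ac pair in both lists (1 point per pair, point area growing with its contacts), by the positions of its bins; upstream is the left side, anchors the anchor band, inside the Nanog to Slc2a3 domain and downstream the right side, and black bars are medians. All 5 pairs from upstream to the anchors and 20 of 23 from upstream to inside lie above 0, and 31 of 50 inside the domain lie below 0. With the model totals these are 5, 16 and 40. Of all shared pairs genome-wide 53.8% lie above and 46.2% below 0, or 28.0% and 72.0% with the model totals.

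At the right end of the domain, H3K27ac pairs of the bins 122784001 to 122788000, which hold the CTCF and RAD21 anchors at +77.0 to +79.0 kb, were mostly in the untreated list only. They had 19 pairs with the domain in the untreated list (299 contacts in all) and 4 in the IAA list (70 contacts), with 2 shared. Of the 19, 89.5% were in the untreated list only, against 57.1% of all untreated pairs. The strongest, of +57.5 kb with +77.5 kb, held 41 contacts and was not in the IAA list. The pair of +57.5 kb with +79.5 kb was in the IAA list only (17 contacts). The other IAA pairs joined +77.5 kb to +59.5 kb (22 and 15 contacts), to +61.5 kb (16 and 18) and to +63.5 kb (20, IAA list only). Of the 4, 50% were thus in the IAA list only, against 44.9% of all IAA pairs. Coverage of the 2 anchor bins was 1897 and 1235 in the untreated data and 1929 and 1227 after IAA, relative log2 ratios of -0.17 and -0.21. Pairs from the domain to bins further right numbered 14 in the untreated list and 29 in the IAA list. The 11 shared ones held 136 and 175 contacts (log2 ratio 0.39, 0.06 to 0.73), led by +57.5 kb with +103.5 kb at 22 and 38. Of these 29, 62.1% were in the IAA list only, against 44.9% of all IAA pairs. Over the whole right side, with the anchor bins, the domain had 33 pairs in each list, 13 of them shared, so fewer pairs at the anchor bins stood beside more pairs past them.

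Most H3K27ac pairs of the interval passed over CTCF anchors without lying on a CTCF pair. An anchor bin of the CTCF list lay strictly between the 2 bins of 211 of 241 untreated pairs (87.6%, 82.7 to 91.4), against 49.0% of all untreated pairs, and of 200 of 224 pairs after IAA (89.3%, 84.5 to 93.0), against 48.3%. For RAD21 anchors it was 86.3% (81.3 to 90.4), against 46.9%, and 84.4% (78.9 to 88.9) after IAA, against 45.8%. Pairs here also spanned more bases than the median pair of the lists, and the part of span in these shares was not tested.

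On the same pair of 2 kb bins as a CTCF pair lay 10 untreated pairs (4.15%, 2.01 to 7.50), against 6.23% of all, and 2 after IAA (0.893%, 0.108 to 3.19), against 3.27%. For RAD21 these were 13 (5.39%, 2.90 to 9.05), against 5.68%, and 4 (1.79%, 0.489 to 4.51), against 3.38%. With each bin free to differ by 1 bin, the untreated shares were 17.0% on a CTCF pair, against 13.1% of all, and 20.7% on a RAD21 pair, against 13.2%, so that they lay above and no longer below those of all pairs. The 10 untreated pairs on CTCF pairs held 160 contacts. Of them, 8 of 10 were not listed after IAA, against 67.4% of all untreated H3K27ac pairs on CTCF pairs and 57.1% of all untreated pairs. Among the 8 were the main Slc2a3 start with +77.5 kb and the pair of +33.5 kb with +77.5 kb (19 contacts). The 2 that were in both lists held 26 and 27 contacts and include the pair of the Nanog start with -38.5 kb (13 and 14 contacts). No pair of the Gdf3 bin lay on a CTCF or RAD21 pair. In the -5 kb pair of the Gdf3 bin, 6 CTCF and 5 RAD21 anchor bins lay between the 2 bins, and 15 of each lay within its pair with +57.5 kb.

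In the H3K27ac lists, the nearest bin to the left of the interval with a pair into it was at -212.5 kb, in an intron of Rimklb, with 12 contacts in 1 untreated pair with the Gdf3 bin. On the right, the last bin inside was at +119.5 kb, in an intron of Foxj2, with 14 contacts in 1 untreated pair and 35 contacts in 3 pairs after IAA. The bin at +167.5 kb, at the start of Necap1, is the nearest one outside, with 16 and 11 contacts to the Gdf3 bin. Pairs with 1 bin outside numbered 33 in the untreated list and 48 after IAA. Their 25 shared pairs held 365 and 430 contacts (log2 ratio 0.27, 0.06 to 0.47), and the 113 shared pairs with both bins inside held 2941 and 2945 (0.03, -0.04 to 0.11).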

How the data were processed

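Per the labels, all libraries of a group refer to 1 interaction list. The submitters' processing notes name Trim Galore, BWA, MACS2, deepTools and mm10, without versions. Per the file headers, the deposited contact counts are raw whole numbers per pair of bins (2 kb for H3K27ac, 1 kb for CTCF and RAD21). The authors also deposited each bin's read coverage and peak flag, the contacts their model predicted, and a q-value, under 0.05 in every row.

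Log2 ratios used the totals over all shared pairs as scaling, with exact binomial (Clopper-Pearson) 95% intervals. These intervals reflect counting error alone, because each group is 1 pooled list without replicate values. PCR copies cannot be told from separate molecules in these counts, so the intervals may be too narrow even for counting error. Sums, shares and ratios were computed in Python 3.11.15 with pandas 2.3.3, numpy 2.4.6 and scipy 1.17.1, and tested on simulated data. No p-values were computed. The 4 genes, the interval, the Gdf3 bin and all lists were chosen with earlier results of these data known. The rule for named pairs took those between the 4 start bins and the enhancer regions, those of the Gdf3 bin (partly given by counts, sums and plot), the 5 with most untreated contacts, and the 3 highest and 3 lowest log2 ratios among shared pairs with 20 contacts or more. Other pairs named, among them those of Phc1, of the far Slc2a3 start and of the anchor bins at the right end, were chosen after their values were seen. No pair lay beyond a chromosome end of GRCm38.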

Additional observations from a re-analysis of the deposited data

How the results depend on the processing

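Scaling by the authors' model totals moved every log2 ratio of summed or median contacts. The median over shared pairs was -0.22 in place of 0.03 and the Nanog start bin -0.19 in place of 0.06, so both changed sign. The Gdf3 bin was 0.19 in place of 0.44, the left side to the Nanog to Slc2a3 domain 0.42 in place of 0.67, and the domain itself -0.42 in place of -0.17, each with the same sign. That scaling also changed the split of shared pairs by sign. Over the interval 48 pairs were above 0 (77 with the totals over shared pairs) and 90 below (61). For the Gdf3 bin these were 11 (19) and 16 (8), for the left side to the domain 16 (20) and 7 (3), and within the domain 10 (19) and 40 (31). Of all shared pairs genome-wide, 28.0% were above 0 (53.8%) and 72.0% below (46.2%). Letting each bin differ by 1 bin moved 3 shares. Untreated pairs called again went from 57.3% to 81.3%, those on a CTCF pair from 4.15% to 17.0%, and those on a RAD21 pair from 5.39% to 20.7%. In the other 20 settings run, values moved by less than their counting interval. These included a minimum of 10 contacts, a q of 0.01 or less, flanking bins added to the Nanog and Gdf3 bins, and pairs with both bins inside. The divisions of the interval, their alternatives and the counts by sign under the other scaling were chosen after seeing the data. Leaving out a replicate could not be run. No paired analysis was possible because each group is 1 list pooled over its libraries. Most single pairs hold few contacts (median 14), so pairs in 1 list only may lie just under the authors' threshold in the other.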
